A study of Sus scrofa with 18 samples.

Results

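The 7 genes described here are the swine leukocyte antigen (SLA) class I genes SLA-1, SLA-2, SLA-3, SLA-5, SLA-6, SLA-7 and SLA-8, which RefSeq places on chromosome 7 of the pig assembly Sscrofa11.1. They were chosen by name, and they are 7 of the 28210 RefSeq genes on the named chromosomes. H3K4me3 and H3K27ac were profiled by CUT&Tag, in which an antibody to a histone mark guides a transposase to cut and tag the DNA nearby, in the myometrium of Yorkshire gilts on day 15. GD15M_CM was the circular muscle and GD15M_LM the longitudinal muscle of the mesometrial side in pregnancy, and CD15M_CM was the circular muscle of the mesometrial side in cyclic, unmated gilts. Each tissue and mark had 2 gilts, with IgG libraries as controls, and all 3 tissues were whole dissected muscle from which the endometrium had been cut away. The deposited peaks were called after both gilts had been pooled, so each of the 6 lists is 1 measurement without replicate error, no difference below has a test, and more cells carrying a mark cannot be told apart from more mark per cell.

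MHC class I molecules sit on the surface of nucleated cells with beta-2-microglobulin and a peptide from inside the cell. The classical genes SLA-1, SLA-2 and SLA-3 encode the molecules that present such peptides to CD8+ T cells, and their transcription is known to respond to interferons through NLRC5 and IRF1. SLA-6, SLA-7 and SLA-8 are the non-classical genes, which are less variable. SLA-5 was kept apart from both classes, because its standing as a functional gene is unsure. H3K4me3 marks the start of genes that are transcribed or poised, and H3K27ac marks active promoters and enhancers. In the pig, implantation sets off an interferon response in the uterus.

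The genes lie in 2 groups on chromosome 7. SLA-1 (22824137 to 22920154), SLA-5 (22851888 to 22854782), SLA-3 (22938211 to 22942735) and SLA-2 (22916747 to 22959405) form the classical block, which was 141.3 kb long with 3 kb on either side. SLA-8 (23622352 to 23625818), SLA-7 (23634731 to 23638722) and SLA-6 (23645335 to 23649342) form the non-classical block of 33.0 kb, whose SLA-8 starts 662.9 kb beyond the end of SLA-2. The RefSeq models of 2 genes are far longer than the rest. SLA-1 spans 96018 bp and holds SLA-5 and the class I genes LOC100515902 and LOC100513601, the latter with SLA-1 among its synonyms. SLA-2 spans 42659 bp and holds SLA-3, while the other 5 models are 2895 to 4525 bp long.

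SLA-6 is the class I gene whose promoter the study cloned in front of luciferase, and its primers are the only sequences of these genes in the sources used here. They are printed because they mark the promoter fragment that was chosen for the reporter.
SLA-6 forward: cgtgaagtgagatctgggagg
SLA-6 reverse: ggccacggtagtgaccttt
The forward primer has 21 bases and the reverse primer 19. Their positions were not looked up, and the reporter activity was not analysed here.

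Peaks with at least 1 bp from 3 kb before to 3 kb after a gene were taken as its peaks. The strength of a peak is its fold enrichment, a ratio of the mark over IgG, and its percentile is its rank by fold enrichment among all peaks of its own list, with 0 for a gene without a peak. Percentiles were used between tissues because lists called separately need not share a scale. The lists held 33599, 31910 and 36331 H3K4me3 peaks and 79877, 57010 and 82037 H3K27ac peaks in GD15M_CM, GD15M_LM and CD15M_CM, and this order of tissues is kept wherever 3 values stand together. Percentile 90 was reached at a fold enrichment of 20.3, 25.6 and 24.8 for H3K4me3 and of 5.39, 6.29 and 5.39 for H3K27ac.

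All 7 genes had an H3K4me3 peak in the 3 tissues, and all but SLA-5 had an H3K27ac peak. A peak was found for H3K4me3 in 60.0%, 61.0% and 61.7% of all genes and for H3K27ac in 62.9%, 61.3% and 64.9%. Among protein-coding genes, 73.7%, 74.6% and 75.4% had an H3K4me3 peak and 73.9%, 73.1% and 75.8% an H3K27ac peak. Many of the H3K27ac peaks were weak. With peaks under −log10 p 10 or under fold enrichment 5 removed, 5, 3 and 2 of the 7 genes kept an H3K27ac peak, and 6, 6 and 7 kept an H3K4me3 peak.

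The strong H3K4me3 peaks of the region sat at gene ends. At 8 places a peak reached a fold enrichment of 10 or more in at least 1 tissue, and all 8 overlapped an end of a class I gene. In the classical block these were the low-coordinate ends of SLA-1, LOC100515902, LOC100513601 and SLA-3 and the high-coordinate end of SLA-2. In the non-classical block they were the low end of SLA-8 and the high ends of SLA-7 and SLA-6. SLA-5 had no such peak. These 8 places are called loci below and carry the name of the gene whose end they overlap.

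**Figure D1:**
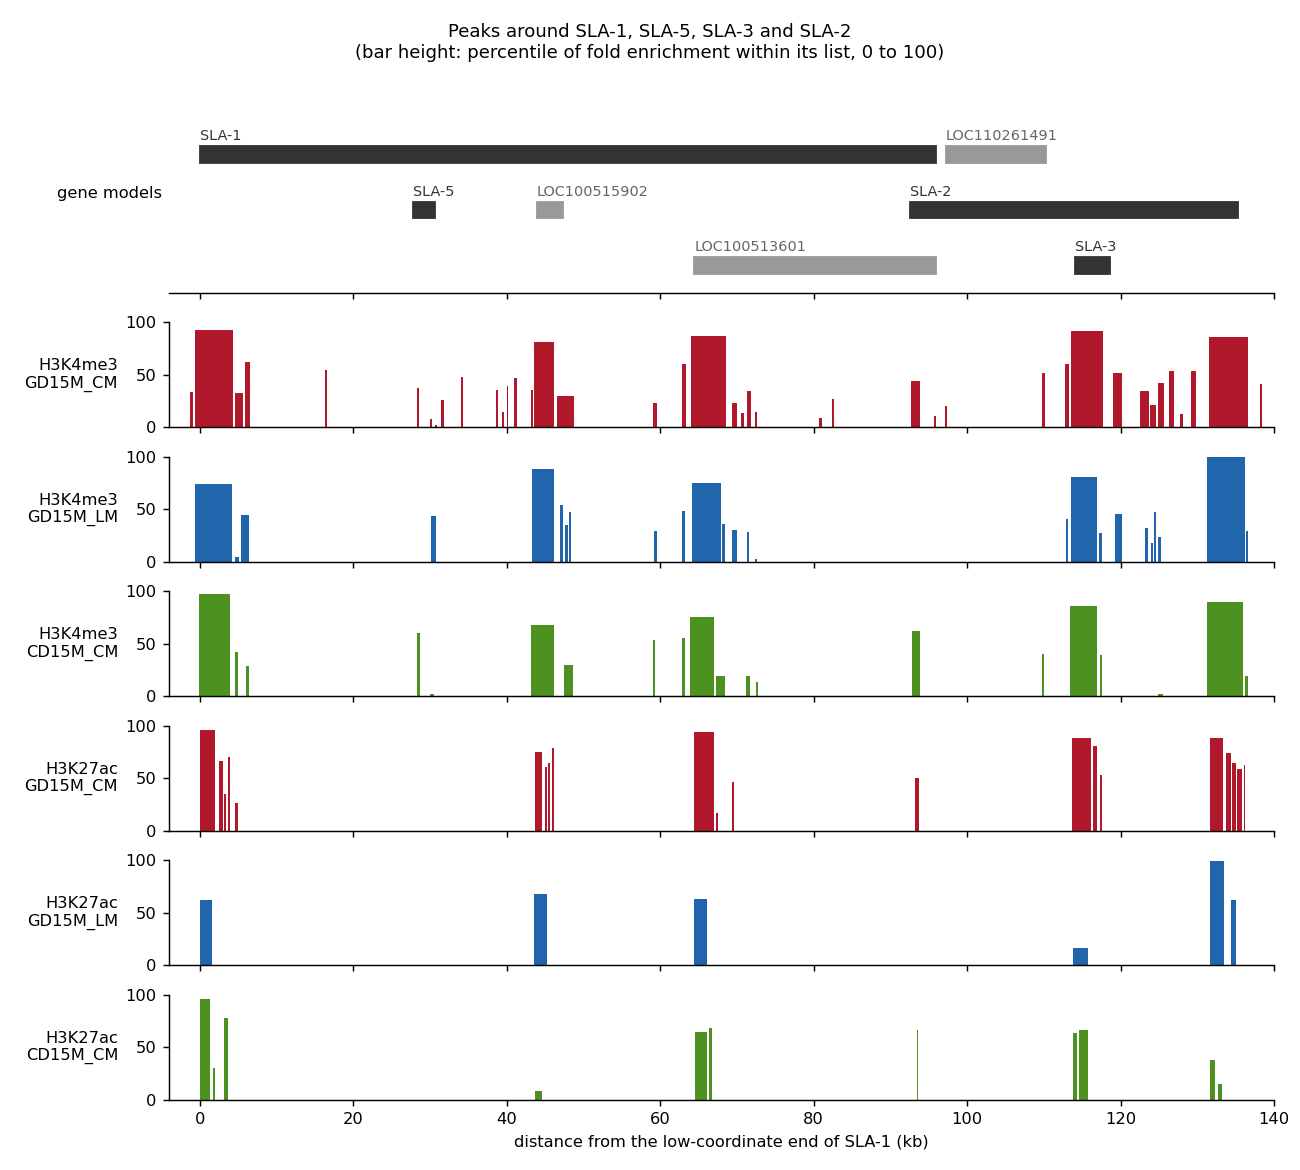
Gene models (dark, class I genes of the list; grey, neighbours) and peaks from 3 kb before SLA-1 to 3 kb after SLA-2, plotted by distance from the low-coordinate end of SLA-1 in kb, with 1 track for each mark and tissue. The bar width is the length of the peak and its height the percentile within its list (0 to 100). Wide and high H3K4me3 peaks stand at the ends of SLA-1, LOC100515902, LOC100513601, SLA-3 and SLA-2, H3K27ac peaks lie inside them, and SLA-5 has only low and narrow H3K4me3 peaks.

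Among the classical genes, the SLA-1 end was marked more strongly in circular than in longitudinal muscle. At its low end the H3K4me3 fold enrichment was 22.1, 16.9 and 33.3, at percentiles 92.8, 74.3 and 97.3. H3K27ac there was 6.71, 4.22 and 6.44, at percentiles 96.5, 62.1 and 96.1. Both marks were thus lowest in GD15M_LM at this end, and both circular muscle lists lay above percentile 90. Read over the whole gene model, SLA-1 reached percentiles of 88.9 for H3K4me3 and 67.9 for H3K27ac in GD15M_LM, because the highest peak of that list was the one at LOC100515902.

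SLA-2 stood out in longitudinal muscle. At its high end the H3K4me3 fold enrichment was 18.4, 43.6 and 24.6, at percentiles 86.3, 99.7 and 89.7. H3K27ac there was 5.26, 10.3 and 3.23, at percentiles 88.9, 99.6 and 37.6. By percentile, SLA-2 was the only one of the 8 loci with both marks highest in GD15M_LM. By the whole model, the top peak of SLA-2 was that of the SLA-3 end for H3K4me3 in GD15M_CM (percentile 91.9), and for H3K27ac in CD15M_CM it was a peak of 200 bp near the low end (percentile 66.9).

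SLA-3 had similar H3K4me3 enrichment in the 3 tissues and H3K27ac that varied more. The H3K4me3 fold enrichment was 21.5, 20.3 and 22.02, at percentiles 91.9, 81.0 and 86.1. H3K27ac was 5.17, 2.93 and 4.00, at percentiles 88.2, 16.7 and 66.6. In GD15M_LM the H3K27ac peak was still 1941 bp long, so it was a wide and weak peak. SLA-3 lies inside the SLA-2 model, and all of its peaks also counted for SLA-2.

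LOC100515902 and LOC100513601 lie within the SLA-1 model and were followed because peaks of SLA-1 fall on them. At LOC100515902 the H3K4me3 fold enrichment was 16.1, 24.8 and 11.09 (percentiles 81.5, 88.9 and 67.8). Its H3K27ac was 4.45, 4.47 and 2.52 (percentiles 78.6, 67.9 and 7.99), so by fold enrichment both of its marks were highest in GD15M_LM, by a very small margin for H3K27ac. At LOC100513601 H3K4me3 was 18.7, 17.1 and 16.1 (percentiles 87.0, 74.8 and 76.0), and H3K27ac was 6.16, 4.26 and 4.05 (percentiles 94.6, 63.1 and 68.5). Both marks of LOC100513601 were thus highest in GD15M_CM.

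SLA-5 differed from the other members. Its strongest H3K4me3 peak had a fold enrichment of 3.96, 4.85 and 6.52, at percentiles 37.2, 44.2 and 60.1, and was 327, 652 and 462 bp long. No H3K27ac peak lay within 3 kb of it in any list. All of its peaks lay inside the SLA-1 model as well.

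Among the non-classical genes, SLA-8 was strongest in GD15M_CM. Its H3K4me3 fold enrichment was 27.7, 15.4 and 23.6, at percentiles 97.7, 71.6 and 88.4, and the first of these was the highest H3K4me3 value of the 8 loci in GD15M_CM. H3K27ac was 5.55, 5.85 and 4.74, at percentiles 91.3, 86.5 and 82.7. The fold enrichment of H3K27ac was thus highest in GD15M_LM while its percentile was highest in GD15M_CM, so its order depended on the scale. The strongest SLA-8 peak of each mark also fell within 3 kb of the pseudogene MIC-1.

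SLA-7 was strongest in cyclic circular muscle. Its H3K4me3 fold enrichment was 19.3, 17.7 and 30.4, at percentiles 88.3, 75.9 and 95.7. H3K27ac was 5.48, 5.46 and 7.47, at percentiles 90.7, 82.9 and 98.5. None of its peaks was shared with another gene in any list.

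SLA-6 carried H3K4me3 without strong H3K27ac. The H3K4me3 fold enrichment was 15.9, 14.9 and 14.9, at percentiles 80.9, 70.6 and 73.8, and −log10 p of the peak was 73.4, 60.1 and 60.1. H3K27ac was 3.28, 2.54 and 3.32, at percentiles 40.6, 5.04 and 41.8. Among the 8 loci SLA-6 had the lowest fold enrichment of both marks in GD15M_CM and GD15M_LM. In CD15M_CM only LOC100515902 was lower for H3K4me3, and only LOC100515902 and SLA-2 were lower for H3K27ac. Its peaks were not shared with another gene.

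**Figure D2:**
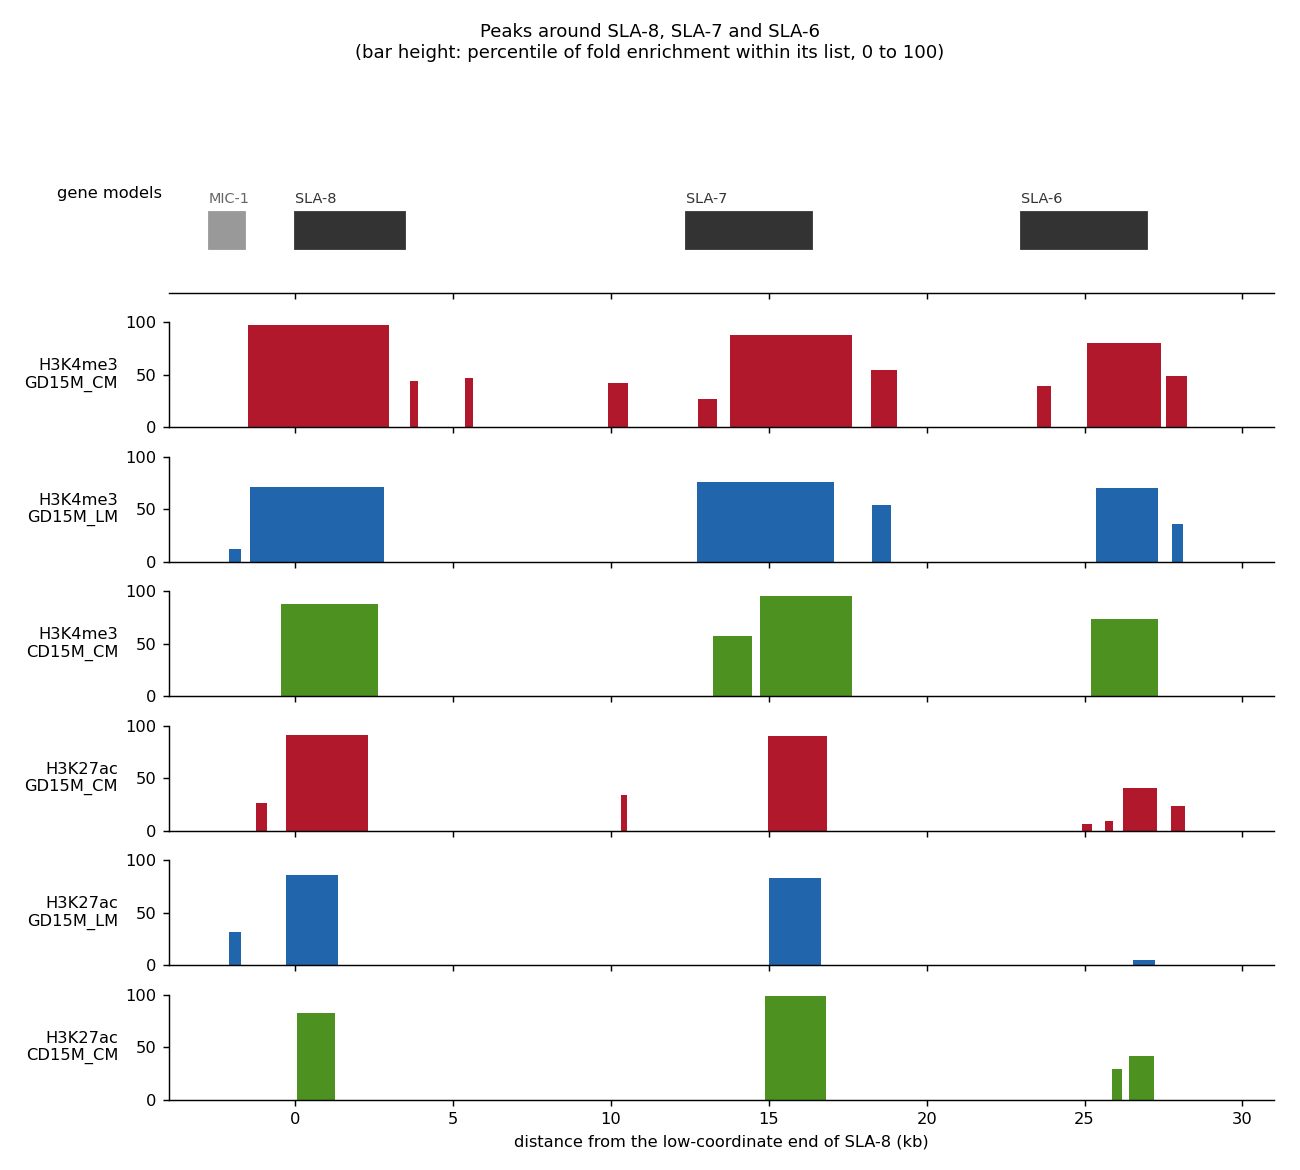
Gene models and peaks from 3 kb before SLA-8 to 3 kb after SLA-6, plotted by distance from the low-coordinate end of SLA-8 in kb, with 1 track for each mark and tissue. Bar width is peak length and bar height the percentile within the list. Each gene has 1 wide H3K4me3 peak at an end in each tissue, and the H3K27ac bars at SLA-6 stay at percentile 41.8 or less.

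Ordered by H3K4me3 fold enrichment, the loci of GD15M_CM ran from SLA-8 through SLA-1, SLA-3, SLA-7, LOC100513601, SLA-2 and LOC100515902 to SLA-6. In GD15M_LM the order began with SLA-2 and LOC100515902 and ended with SLA-8 and SLA-6. In CD15M_CM it began with SLA-1 and SLA-7 and ended with SLA-6 and LOC100515902. With 1 pooled list per tissue no neighbours in these orders can be called different, and reads were kept by the authors only at a mapping quality of 25 or more, so how far the near-identical sequence of these genes changed their levels was not tested.

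**Figure D3:**
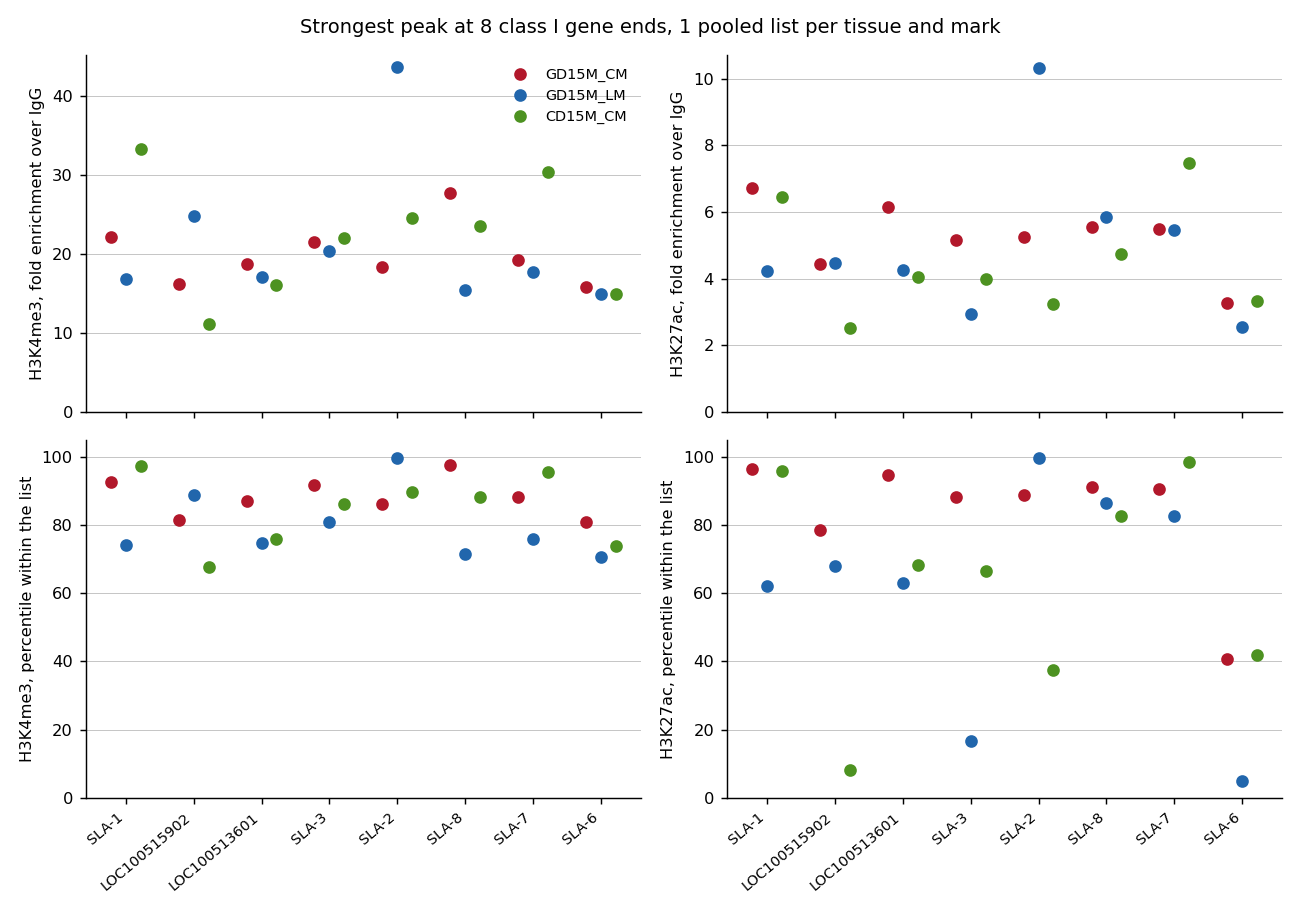
Strongest H3K4me3 (left) and H3K27ac (right) peak at the 8 class I gene ends, as fold enrichment over IgG (top) and as percentile within the list (bottom, 0 to 100), with 1 point per pooled list and no error bars because the lists used were called on pooled gilts. SLA-2 has its highest points in GD15M_LM for both marks (43.6 and 10.3), while SLA-6 lies low for H3K27ac in the 3 tissues.

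The classes were compared by the top peak of each whole gene model, which for SLA-1 and SLA-2 can lie at another gene. For H3K4me3 in GD15M_LM the classical gene was higher in 9 of the 9 pairs of a classical and a non-classical gene, with medians of 88.9 and 71.6. The SLA-1 value there, which is also the classical median, is the peak at LOC100515902, and with peaks at gene ends only the count was 8 of 9, since SLA-1 (74.3) was below SLA-7 (75.9). In GD15M_CM it was higher in 6 of 9 pairs (medians 91.9 and 88.3), or 5 of 9 with gene ends only, where SLA-2 stood at 86.3, and in CD15M_CM in 6 of 9 (89.7 and 88.4). For H3K27ac the count was 5, 5 and 4 of 9, and the medians of the non-classical genes (90.7, 82.9 and 82.7) were above those of the classical ones (88.9, 67.9 and 66.9). SLA-6 lay below the 3 classical genes in all 6 lists by whole model. At the marked gene ends the exception was H3K27ac in CD15M_CM, where SLA-2 (37.6) was below SLA-6 (41.8).

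At 7 of the 8 class I loci the H3K4me3 peak was longer than the median strongest peak of a gene in each tissue. The margin was small at LOC100515902 (2637, 2879 and 2925 bp) and at SLA-7 in CD15M_CM (2910 bp). SLA-6 was shorter in the 3 tissues (2356, 1946 and 2111 bp). In GD15M_CM the strongest peak was 4949 bp at SLA-1, 5130 bp at SLA-2, 4452 bp at SLA-8 and 4440 bp at LOC100513601, and 4133 bp at SLA-3, 3856 bp at SLA-7, 2637 bp at LOC100515902 and 2356 bp at SLA-6. The median over the strongest peak of 16367 genes with H3K4me3 in the 3 tissues was 2513, 2701 and 2780 bp. The loci were chosen by a fold enrichment of 10 or more in at least 1 tissue, which was not asked of those genes. These lengths are thus not of like sets of peaks, and how far the choice of loci set them was not tested. The peak was longer in GD15M_CM than in CD15M_CM at 7 of 8 loci, against 27.2% of those genes, and LOC100515902 was the exception. It was longer in GD15M_CM than in GD15M_LM at 6 of 8 loci, against 35.3% of genes, the exceptions being LOC100515902 and SLA-7. The 7 and 6 loci were counted again after dropping weak peaks, with −log10 p under 10 or fold enrichment under 5, and stayed at 7 and 6.

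At SLA-8 the peak measured 4452, 4243 and 3072 bp and at SLA-7 3856, 4330 and 2910 bp. At SLA-1 it measured 4949, 4791 and 4066 bp. The CD15M_CM peak lay wholly inside the GD15M_CM peak at SLA-1, SLA-8, SLA-7 and SLA-6, where it took up 82.2%, 69.0%, 75.5% and 89.6% of it. SLA-1 and SLA-7 were therefore longer but not higher in pregnant than in cyclic circular muscle, since their fold enrichment was higher in CD15M_CM.

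The same held for the whole window of a gene. H3K4me3 peaks covered 59.1%, 49.6% and 41.4% of the SLA-7 window, 52.5%, 49.0% and 32.5% of the SLA-8 window and 34.7%, 23.0% and 21.1% of the SLA-6 window. The classical windows were covered to 23.9%, 16.9% and 16.4% at SLA-1, 36.2%, 23.7% and 23.2% at SLA-2 and 56.5%, 48.5% and 35.7% at SLA-3. GD15M_CM was highest in 7 of 7 genes, SLA-5 included (14.1%, 7.33% and 10.8%). Over all genes with a peak, the window was more covered in GD15M_CM than in CD15M_CM in 26.8% and than in GD15M_LM in 39.4%. With weak peaks dropped, the 7 genes became 6 against CD15M_CM and 5 against GD15M_LM.

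H3K27ac cover was larger in GD15M_CM than in CD15M_CM for 6 of 7 genes, against 44.8% of all genes, and than in GD15M_LM for 6 of 7, against 71.9%. The remaining gene was SLA-5, which had none. The second of these counts is close to its background. Members of the classical block share peaks, so these counts are not of 7 separate regions.

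The number of peaks also differed. The classical block held 41, 25 and 21 H3K4me3 peaks, and the non-classical block 10, 6 and 4. For H3K27ac the numbers were 21, 6 and 11 and then 8, 4 and 4. At least 1.5 times as many H3K4me3 peaks in GD15M_CM as in CD15M_CM were found in 13.2% of stretches of the genome as long as the classical block and in 16.4% of those as long as the non-classical block. Against GD15M_LM the shares were 24.7% and 35.1%, and for H3K27ac they were 20.2% and 26.2% against CD15M_CM and 52.4% and 53.3% against GD15M_LM. Many of the peaks were weak, with 28 of the 41 below percentile 50. After weak peaks were dropped, the classical block held 8, 7 and 8 H3K4me3 peaks and the non-classical block 4, 4 and 4, so the excess in GD15M_CM lay in weak peaks.

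H3K27ac peaks lay inside each of the strong H3K4me3 peaks. They covered 76.9%, 57.8% and 49.8% of the H3K4me3 peak at SLA-3 and 70.4%, 48.3% and 24.4% of that at SLA-2. At SLA-8 they covered 66.2%, 38.7% and 38.8% and at SLA-6 63.2%, 34.9% and 53.3%. At SLA-1 the values were 62.1%, 32.5% and 51.4%, and at SLA-7 48.1%, 38.1% and 66.9%. GD15M_CM was above GD15M_LM at 8 of 8 loci, where 74.8% of genes showed the same, and above CD15M_CM at 6 of 8, where 58.2% did. The exceptions against CD15M_CM were SLA-7 and LOC100513601. The median over the 16367 genes was 74.3%, 58.4% and 69.1%, and in each tissue the class I loci lay below it except SLA-3 in GD15M_CM.

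**Figure D4:**
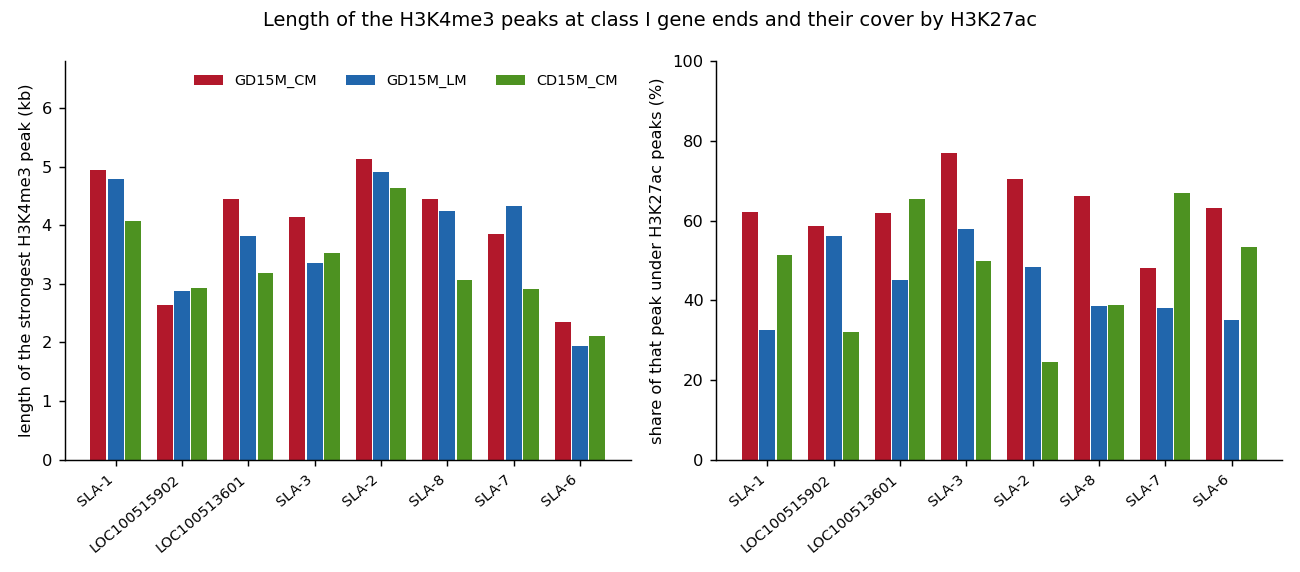
Length in kb of the strongest H3K4me3 peak at the 8 class I loci (left) and the share of it, in percent, that lies under H3K27ac peaks (right), with 1 bar per pooled list and no error bars. The GD15M_CM bar is longer than the CD15M_CM bar at 7 of 8 loci, and for the H3K27ac share it is above GD15M_LM at all 8.

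Pregnancy was addressed by setting GD15M_CM against CD15M_CM. For H3K4me3, 0 of the 7 genes ranked 10 percentile points or more higher in GD15M_CM, where 12.4% of all genes with a peak did, and 1 ranked lower, SLA-5, where 23.9% did. SLA-8 came nearest to the limit with 97.7 against 88.4, and SLA-6 stood at 80.9 against 73.8. The study itself tested H3K4me3 regions between these tissues with the program DiffBind. It took SLA-6 into its reporter assay of promoter regions that differed in H3K4me3. Those calls were not used here. With 1 pooled list per tissue, a difference within the limit was not tested and is not a finding of equal H3K4me3. The count of 0 was also limited by rank. In CD15M_CM, SLA-1 (97.29) and SLA-7 (95.65) stood too near the top to rank 10 points higher in GD15M_CM. SLA-2 (89.73) and SLA-8 (88.44) had little room, and SLA-3, SLA-6 and SLA-5 had more. The 12.4% was over genes of every rank, so the count of 0 cannot show that a gain was absent. The median difference of the members was 2.2 points and that of all genes −2.13. At the 8 loci the count was 2 higher, LOC100515902 by 13.65 points and LOC100513601 by 11.09, and 0 lower. For H3K27ac, 2 of 7 genes ranked higher, against 25.5% of all genes, and 0 lower, against 27.4%. They were SLA-3 (88.2 against 66.6) and SLA-2 (88.9 against 66.9). SLA-1 (96.07) and SLA-7 (98.5) again stood too high in CD15M_CM to rank 10 points higher. At the loci 4 of 8 ranked higher, LOC100515902 by 70.6 points, SLA-2 by 51.2, LOC100513601 by 26.2 and SLA-3 by 21.6. All 4 lie in the classical block, and the H3K27ac percentiles of SLA-1, SLA-8, SLA-7 and SLA-6 differed by less than 10 points. The loci were chosen by their H3K4me3 fold enrichment after the lists were read. The shares of all genes given here are for whole gene windows. No share was computed for places chosen like the loci, so the locus counts of both marks have no matching background.

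T cell markers ranked higher for H3K4me3 in the same comparison, and their part in the result was not tested. Of the 4 placed genes of the list, CD3D (68.0 against 52.6), CD8A (66.8 against 51.7) and LCK (90.9 against 73.3) ranked 10 points or more higher for H3K4me3 in GD15M_CM, and CD3E stood at 51.7 against 47.2. The list ranged from 51.7 to 90.9 in GD15M_CM and from 47.2 to 73.3 in CD15M_CM. For H3K27ac, CD3E and CD3D had no peak in any list, and LCK ranked 64.9 against 52.1. Of the leukocyte and macrophage markers, PTPRC ranked higher for H3K4me3 (61.9 against 48.2) and CD163 lower (0 against 60.8), and 0 of 4 endothelial markers differed by 10 points or more for H3K4me3. The epithelial markers had no common direction. For H3K4me3 KRT18 ranked lower in GD15M_CM (75.1 against 87.5) and the other 3 differed by less than 10 points. For H3K27ac CDH1 (76.2 against 4.75) and KRT18 (84.1 against 44.0) ranked higher, while EPCAM (75.0 against 71.9) and KRT8 (76.1 against 84.9) were within 10 points. Of the other lists, the monocyte marker CD14 (87.1 against 73.1) and the endothelial marker CDH5 (39.9 against 19.02) ranked higher for H3K27ac, and CSF1R lower (62.4 against 78.6). Smooth muscle markers had peaks of both marks in the 3 tissues for 6 of 6 genes. For H3K4me3 they ranged from 71.0 to 85.1 in GD15M_CM and from 77.0 to 94.5 in CD15M_CM. Of the 6, 4 ranked 10 points or more lower in GD15M_CM. For H3K27ac CNN1 (69.1 against 88.0) and DES (68.6 against 87.8) ranked lower, and the others were within 10 points.

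The muscle layers were compared in pregnancy, GD15M_CM against GD15M_LM. This shares the GD15M_CM list with the comparison above, so the 2 are not independent. For H3K4me3, 4 of 7 genes ranked 10 points or more higher in GD15M_CM, against 20.9% of all genes, and 0 lower, against 20.2%. The 4 were SLA-8 (97.7 against 71.6), SLA-7 (88.3 against 75.9), SLA-3 (91.9 against 81.0) and SLA-6 (80.9 against 70.6), and 3 of them are the non-classical genes. The fold enrichments of SLA-6 and SLA-3 were close in both layers (15.9 and 14.9, and 21.5 and 20.3), so for these the difference rests on the rank within each list. At the loci 6 of 8 ranked higher, SLA-1 and LOC100513601 being the other 2, and 1 lower, SLA-2 (86.3 against 99.7). These locus counts again have no matching share over all genes.

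For H3K27ac, 3 of 7 genes ranked higher in GD15M_CM, against 33.8% of all genes, and 1 lower, against 22.5%. The 3 were SLA-3 (88.2 against 16.7), SLA-6 (40.6 against 5.04) and SLA-1 (96.5 against 67.9), and the 1 was SLA-2 (88.9 against 99.6). These shares are near the background. At the loci 5 of 8 ranked higher and 1, SLA-2, lower, and no matching share over all genes was computed for these counts. The SLA-3 and SLA-2 ends lie in the same gene model and differed between the layers in opposite directions for H3K27ac. SLA-8 and SLA-7 differed by 4.78 and 7.82 points.

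Epithelial markers also ranked higher in GD15M_CM than in GD15M_LM, and their part in the result was not tested. All 4 did so for both marks. For H3K4me3 they ranged from 75.1 to 81.6 in GD15M_CM and from 54.3 to 59.3 in GD15M_LM, and for H3K27ac from 75.0 to 84.1 and from 0 to 42.1. EPCAM, an epithelial adhesion molecule, ranked 75.0 against 19.8 for H3K27ac, and KRT18, a keratin, ranked 84.1 and had no H3K27ac peak in GD15M_LM. In CD15M_CM the epithelial markers ranged from 71.9 to 87.5 for H3K4me3. Of the 4 placed T cell markers, CD8A and LCK ranked higher in GD15M_CM than in GD15M_LM for H3K4me3 as well. CD3D (68.0 against 61.7) and CD3E (51.7 against 57.5) differed by less than 10 points and in opposite directions. For H3K27ac 0 of the T cell markers ranked 10 points or more higher or lower. The leukocyte and macrophage markers had no common direction, since CD14 ranked higher (91.6 against 65.7 for H3K4me3, 87.1 against 39.1 for H3K27ac) while CD163 ranked lower for H3K4me3 (0 against 26.02) and CSF1R lower for H3K27ac (62.4 against 84.6). The endothelial PECAM1 ranked lower for H3K4me3 (60.03 against 72.5) and TEK higher for H3K27ac (72.7 against 59.0). For H3K4me3, 3 of 6 smooth muscle markers ranked lower and 0 higher. For H3K27ac they had no common direction. MYH11 (96.6 against 82.1) and SMTN (94.8 against 80.3) ranked higher, while CNN1 (69.1 against 87.7) and DES (68.6 against 94.3) ranked lower.

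**Figure D5:**
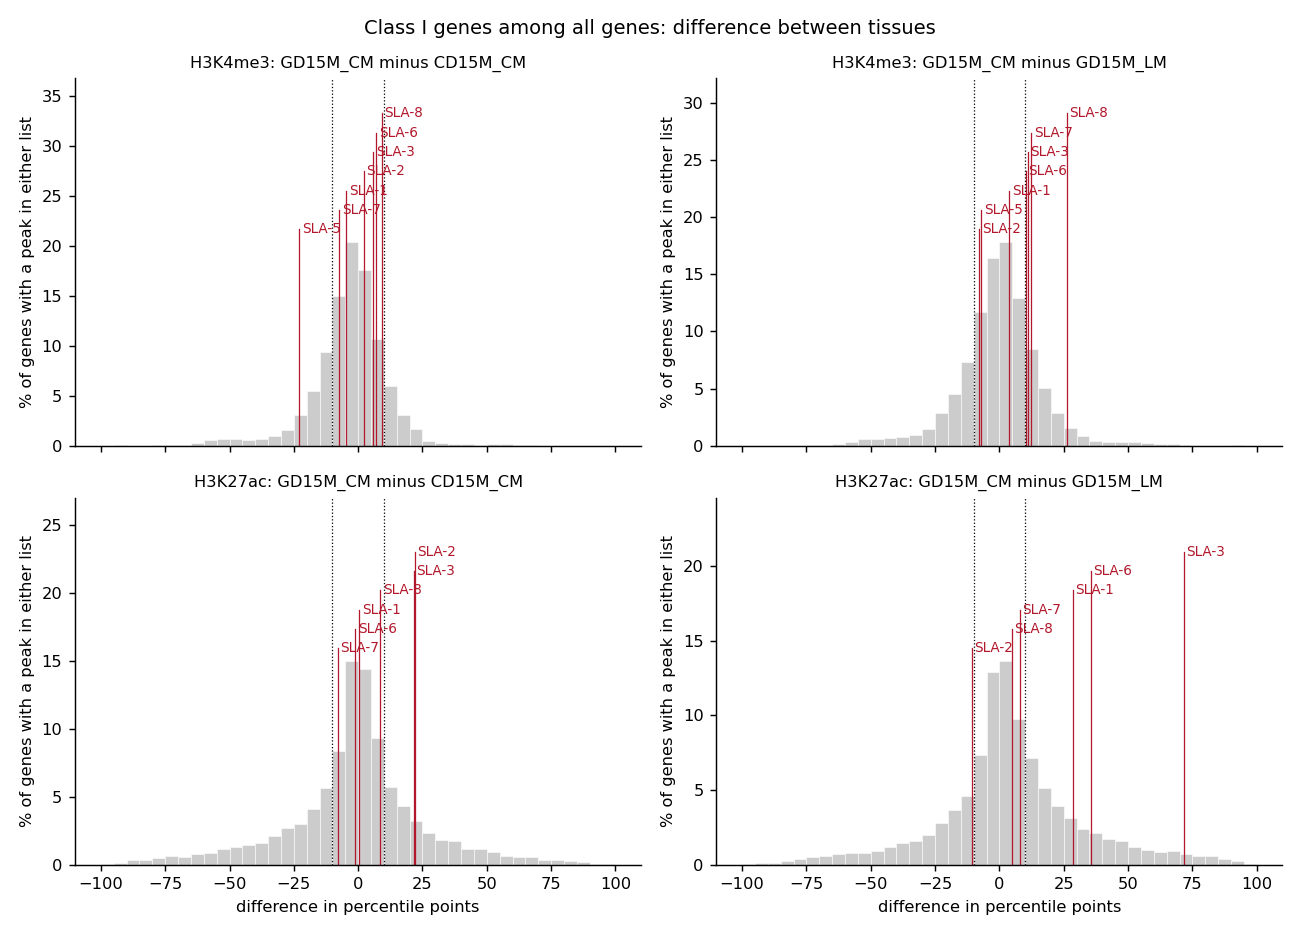
Difference in percentile points, GD15M_CM minus CD15M_CM (left) and minus GD15M_LM (right), for H3K4me3 (top) and H3K27ac (bottom). Grey bars give the percent of all genes with a peak in either list in steps of 5 points, red lines the class I genes, and dotted lines 10 points. SLA-5 has no line for H3K27ac because it had no peak. SLA-3 lies 71.56 points higher in GD15M_CM than in GD15M_LM for H3K27ac, and 0 genes lie past the upper dotted line for H3K4me3 against CD15M_CM. SLA-1 and SLA-7 ranked too high in CD15M_CM to pass that line.

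The genes that serve or control class I were read in the same way, as 27 genes in 3 groups, and 26 of them had an H3K4me3 peak in at least 1 list. Against CD15M_CM, 3 ranked higher for H3K4me3 in GD15M_CM (12.4% of all genes did) and 1 lower (23.9%), and for H3K27ac 8 ranked higher (25.5%) and 3 lower (27.4%). Against GD15M_LM, 4 ranked higher (20.9%) and 5 lower (20.2%) for H3K4me3, and 9 higher (33.8%) and 3 lower (22.5%) for H3K27ac. At this setting the shares of the list that ranked higher were thus about those of all genes or below. For H3K4me3 against CD15M_CM this depended on the ranking, with 5 higher by −log10 p (6.06% of all genes) and 10 by rank among genes (19.9%). The CD15M_CM H3K4me3 medians were 90.3 for partner, transport and loading, 74.3 for the immunoproteasome and 88.6 for the regulators. Many of these genes thus had little room to rank 10 points higher. The median differences were 4.42 and 2.96 points against CD15M_CM, where those of all genes were −2.13 and −0.15. Against GD15M_LM they were −0.21 and 2.56, where those of all genes were 0.4 and 2.3.

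Genes for the partner chain, transport and loading had both marks in every list, 9 of 9. B2M, which encodes beta-2-microglobulin, ranked 81.4, 94.5 and 91.1 for H3K4me3 and 99.5, 99.7 and 96.0 for H3K27ac. B2M thus ranked lower for H3K4me3 in GD15M_CM than in GD15M_LM, opposite to SLA-3, SLA-6, SLA-7 and SLA-8. TAPBP, whose product tapasin bridges class I and the peptide transporter, ranked 96.3, 92.8 and 95.9 for H3K4me3. TAPBPL, a relative of tapasin that edits peptides, ranked 75.8, 97.1 and 95.3 and was the 1 pathway gene lower than in CD15M_CM for H3K4me3. ERAP1, which trims peptides, ranked 72.0, 98.5 and 78.0 for H3K4me3 and 75.9, 99.99 and 88.3 for H3K27ac.

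The peptide transporter genes TAP1 and TAP2 lie side by side with the immunoproteasome genes PSMB8 and PSMB9, and they share peaks. TAP1 ranked 88.2, 90.3 and 83.8 for H3K4me3. PSMB9 ranked 88.2, 67.6 and 74.0 for H3K4me3 and 91.2, 56.3 and 81.6 for H3K27ac, so it was higher in GD15M_CM than in GD15M_LM for both marks. PSMB10, the third catalytic subunit of the immunoproteasome, ranked 73.8, 84.0 and 67.5 for H3K4me3 and 92.8, 87.3 and 44.4 for H3K27ac.

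Of the 13 transcriptional regulators, NLRC5, the transactivator of class I genes, ranked 97.3, 95.03 and 89.6 for H3K4me3 and 98.7, 96.8 and 82.6 for H3K27ac, so it was lowest in CD15M_CM, by less than 10 points for H3K4me3. IRF1, an interferon-induced factor, ranked 95.9, 96.1 and 88.9 for H3K4me3, which is within 10 points. RFX5, a subunit of the complex on the promoters of MHC genes, differed from them, with 97.7, 70.5 and 95.5 for H3K4me3 and 95.5, 50.3 and 94.4 for H3K27ac. The RFX5 pattern of low values in GD15M_LM was also that of the SLA-1 end, but the RFX genes of the list did not share it. RFXAP was also lowest in GD15M_LM, with 81.94, 66.36 and 77.17 for H3K4me3 and 90.6, 66.71 and 78.57 for H3K27ac. RFXANK was instead lowest in GD15M_CM, with 78.2, 86.33 and 81.59 for H3K4me3 and 57.85, 87.44 and 86.32 for H3K27ac.

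Across the 6 lists, the protein-coding genes nearest to the median of the classical genes were CRAT, HGS and SAMD1, at Euclidean distances of 6.79, 7.17 and 7.62 percentile points. For SLA-6 they were TMEM164, TMEM161A and SLC16A6, at 13.2, 17.8 and 20.3. TMEM164 ranked 79.2, 67.6 and 73.5 for H3K4me3 and 43.6, 17.1 and 44.7 for H3K27ac, against the 80.9, 70.6 and 73.8 and the 40.6, 5.04 and 41.8 of SLA-6. The likeness is a description over 6 values and says nothing on function.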

How the data were processed

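The authors used BWA 0.7.17 to map CUT&Tag reads onto Sus scrofa 11.1, removed duplicates and reads with a mapping quality under 25 with SAMtools 1.9 and Picard 2.8.3, pooled the 2 gilts of each tissue and mark, and called peaks with MACS2 2.2.6 against IgG (tools and versions as in the submitters' processing notes). Reads that match several class I genes equally well have a low mapping quality and were lost at this step. In the 6 deposited lists, the fold enrichment is the MACS2 ratio of the mark over IgG that the authors supplied, and the scaling between mark and IgG is not given in the sources used here. The deposited −log10 p of a peak comes from the same run. Its column name was unreadable, and it was identified because 6755 of 6755 rows equalled the peak table of the study within 0.1%. A second unreadable column was not used. The lists give no read depth and no value per gilt, so no error, interval or test could be computed.

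Gene positions came from the RefSeq table of Sscrofa11.1 (28210 genes on the named chromosomes, 19550 protein-coding), used without strand, so gene ends are named by coordinate. A gene's peaks have at least 1 bp from 3 kb before to 3 kb after its model, its value is the highest percentile, and a difference of 10 points or more was counted, beside the same share over all genes with a peak in either list. Members, gene lists and markers were chosen with earlier results of these data known. The 8 loci, the window cover, the peak lengths and the genome stretches of block length (with 5 or more peaks in either list, counted by peak centre) were chosen after the lists were read. Named genes were the members, the neighbours that share their peaks, the pathway and marker genes, and the 3 protein-coding genes nearest to the classical median and to SLA-6. Alternatives were another window, threshold, ranking, list length and joining of peaks, and SLA-5 counted as classical. Promoter motifs and protein sequences were planned and not analysed here. Pathway genes whose values are not printed are still in the counts of the list. Python 3.11.15, pandas 2.3.3, NumPy 2.4.6 and Matplotlib 3.10.9 were used, and the overlap code was tested on simulated data.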

Additional observations from a re-analysis of the deposited data

How the results depend on the processing

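No paired analysis was possible because the peaks were called on pooled gilts, and for the same reason no replicate was left out. Of 248 values under an alternative, 194 stayed within 1.5 times the reported count and 54 did not, and the cause of a change was not tested unless the alternative itself removes peaks. The window of 1 kb changed none of the counts of class I genes by that measure. Counting SLA-5 as classical left the pairs with the classical gene higher at 6, 9 and 6 for H3K4me3 and 5, 5 and 4 for H3K27ac. These were then of 12 pairs instead of 9, so each share fell although the counts were taken as unchanged. Alternatives for window cover, peak lengths and block counts, and giving each peak to the nearest gene end, were chosen after seeing the data.

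With peaks under −log10 p 10 or under fold enrichment 5 removed, 3 genes kept an H3K27ac peak in GD15M_LM and 2 in CD15M_CM, the classical gene was higher in 3 and 2 of the 9 pairs there, and 1 and 0 genes shared a peak. The classical block then held 8, 7 and 8 H3K4me3 peaks and 4, 1 and 1 H3K27ac peaks in GD15M_CM, GD15M_LM and CD15M_CM, and the non-classical block 4 H3K4me3 peaks in GD15M_CM and 2, 2 and 1 H3K27ac peaks. Joining peaks less than 1 kb apart left 20 and 10 H3K4me3 peaks in the classical block in GD15M_CM and GD15M_LM, 7 and 7 H3K27ac peaks in GD15M_CM and CD15M_CM, and in the non-classical block of GD15M_CM 6 H3K4me3 and 4 H3K27ac peaks. With equal numbers of top peaks the latter held 3 H3K27ac peaks.

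Against CD15M_CM, the count of class I genes higher in GD15M_CM for H3K4me3, 0 as reported, became 1 with equal numbers of top peaks, 1 with joined peaks, 3 by rank among genes and 3 with a limit of 5 points. The share of all genes, 12.4% as reported, became 17.1%, 17% and 19.9% under the first 3 of these. The count lower became 2 with joined peaks (32.9% of all genes) and 2 with 5 points. For H3K27ac the count lower, 0 as reported, became 1 with equal numbers (29.3%), joined peaks (29.6%), rank among genes (30.9%) and 5 points. Against GD15M_LM, the count higher for H3K4me3, 4 as reported, became 2 when ranked by −log10 p (14.1%) and 1 with a limit of 20 points. The count lower, 0 as reported, became 1 with gene ends only (20.2%), equal numbers (22.9%), −log10 p (13.6%), joined peaks (29.7%), rank among genes (23.9%) and nearest gene ends, and 2 with 5 points. For H3K27ac the count lower became 0 by −log10 p (15.3%) and 0 with 20 points.

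Of the 27 pathway genes, the count higher than in CD15M_CM for H3K4me3, 3 as reported, became 6 with equal numbers (17.1% of all genes). It became 5 by −log10 p (6.06%) and 10 by rank among genes (19.9%). The count lower became 2 with 1 kb (24.4%) and 3 by rank among genes (22.7%). By −log10 p the counts for H3K27ac against CD15M_CM became 4 higher (18.9% of all genes) and 1 lower (21.6%). The count lower for H3K4me3 against GD15M_LM became 3 (13.6%). The count lower for H3K27ac against GD15M_LM became 5 with equal numbers (32.6% of all genes) and 7 by rank among genes (29.8%).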
